A study of Mus musculus with 27 samples.

Results

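The genes described here are Scx, Mkx, Tnmd and Thbs4, which are markers and regulators of tendon, in Prx1-tdTomato cells sorted from muscle, periosteum and bone marrow. They were taken by symbol from the table of normalized counts, in which all 4 were found among 30153 genes, and all 4 passed the filter on low values that left 18442 genes for testing. All 4 genes were read in every library of P1, the CD200+ subpopulation that lacks CD105, and within each tissue P1 had the highest median of the 3 subpopulations for each of them. In P1 against P3, 0 of the 4 genes passed the thresholds given below in muscle or in periosteum, where 0.141% and 1.39% of all genes passed as higher. The Mkx medians in bone marrow were close, at 225 in P1 and 223 in P2. Scx and Mkx had overlapping levels in P1 cells of muscle, periosteum and bone marrow. Tnmd was 7.55 log2 units higher in muscle P1 than in bone marrow P1, and Thbs4 was 3.66 log2 units higher. With 1 library left out, the Tnmd call held in 27 of 27 fits and the Thbs4 call in 22 of 27.

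Scx encodes scleraxis, a basic helix-loop-helix transcription factor that marks tendon progenitors from the embryo onwards and acts on genes of the tendon matrix. Mkx encodes Mohawk, a homeodomain factor of the Irx-related class that is needed for tendon collagen fibrils to reach their normal size. Tnmd encodes tenomodulin, a membrane glycoprotein that is the usual marker of differentiated tenocytes and is known as a gene downstream of Scx. Thbs4 encodes thrombospondin 4, a secreted matrix protein of tendon and of the junction between muscle and tendon.

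All cells came from the hindlimbs of Prx1-CreER/Ai14/Rag1 mice of both sexes, aged 8 to 12 weeks, 3 days after the last of 2 tamoxifen injections. The Ai14 reporter carries tdTomato, CreER is driven by the Prx1 promoter, so the label marks cells with that promoter active at the time of tamoxifen and their progeny, and every mouse also carried the Rag1 alteration, with no group free of any of the 3. Bone marrow was flushed from femur and tibia, periosteum was scraped off and digested for 20 minutes, and the muscle around the femur was freed of fat and tendon by dissection and digested for 1 hour. Each tissue thus had its own isolation, and tissue and isolation cannot be told apart in comparisons between tissues. Cells positive for tdTomato and negative for CD45 were split by CD105 and CD200. P1 cells were CD200+ and lacked CD105, P2 cells lacked both, and P3 cells were CD105+ whatever their CD200, with 3 libraries for each of the 9 groups and 27 in all. The tissues came from the same animals, the labels do not say which animal gave which library, and the tests treated the libraries as independent.

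A library summed to between 8631881 and 26230908 normalized counts and had between 12396 and 21675 genes above 0, and the lowest of these gene numbers belonged to periosteum P3 replicate 2. Replicates of a muscle group correlated at r 0.862 to 0.955 over the genes tested and those of bone marrow at 0.767 to 0.935, while in periosteum r was 0.631 to 0.827. Cd200, the antigen that separates P1 from P2, was at 1025 to 7515 in the 9 P1 libraries and at 7.24 to 1107 in the 9 P2 libraries, where muscle P2 replicate 2 was the highest and the next was at 72.6. It does not separate P1 from P3. In P3 it was at 6525 to 8340 in muscle, above muscle P1 at 1025 to 3275. Periosteum P3 was at 3700 to 5554, beside 2607 to 3972 in P1, and bone marrow P3 at 451 to 905, beside 6315 to 7515 in P1. Eng, which encodes CD105, was at 5.18 to 382 in P1 and at 774 to 7328 in P3. Prrx1, the gene whose promoter drives the Cre, was above 0 in every library and between 1202 and 4578 in P1. It was lower in bone marrow P2, at 69.0 to 170, and bone marrow P3, at 132 to 725, and uneven in periosteum P2, at 64.0 to 2377. Muscle P2 was at 878 to 2371, muscle P3 at 712 to 934 and periosteum P3 at 1153 to 2183. The depth in reads is unknown, so no counting error can be given for the values.

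On the mouse genome (GRCm38, GENCODE M21) Scx lies on the plus strand at chr15:76457452-76459458, Tnmd on the plus strand at chrX:133850980-133865577 and Thbs4 on the minus strand at chr13:92751590-92794818. The Scx gene stands inside Bop1, a ribosome biogenesis gene read from the opposite strand at chr15:76452989-76477277. The exons of Scx and Bop1 share 0 bases. The library kit does not mark strand, so reads from unspliced Bop1 that fall on Scx cannot be told from Scx reads. Bop1 was a called gene in 1 of the comparisons below, P1 against P2 in bone marrow, where it was 3.40 log2 units higher (limma, adjusted p = 0.00112). It was at 726 to 1218 in bone marrow P1, 28.9 to 153 in P2 and 548 to 1190 in P3, where Scx was at 0 to 4.58. In periosteum P2, where Scx was listed at 0 in every library, Bop1 was at 186 to 1087. The part of Bop1 reads in the Scx values was not tested.

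The promoter stretches of Tnmd and Thbs4, the pair of members whose levels went together most closely across libraries, are shown because the factor encoded by Scx belongs to a class that binds E-boxes, written CANNTG. They run from 250 to 31 bases before each gene's start in RefSeq, which for Tnmd is not the start given above, and were taken from RefSeq on GRCm38.p6, Tnmd at chrX:133850758-133850977 on the plus strand and Thbs4 at chr13:92794849-92795068 on the minus strand, with any E-box in capitals.
Tnmd: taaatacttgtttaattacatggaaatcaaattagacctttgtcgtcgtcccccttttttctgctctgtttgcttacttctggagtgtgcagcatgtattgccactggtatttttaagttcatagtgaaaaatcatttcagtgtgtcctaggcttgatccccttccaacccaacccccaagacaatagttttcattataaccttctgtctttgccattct
Thbs4: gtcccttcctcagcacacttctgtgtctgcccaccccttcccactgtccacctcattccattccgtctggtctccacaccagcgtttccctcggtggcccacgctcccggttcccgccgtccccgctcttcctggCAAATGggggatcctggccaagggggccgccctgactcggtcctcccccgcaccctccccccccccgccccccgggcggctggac
The Tnmd stretch held 0 CANNTG matches and had a GC content of 38.6%. The Thbs4 stretch held 1, at position -115, and had a GC content of 70.0%. CANNTG is its own reverse complement, so both strands are covered, and 62.1% of all promoter entries held at least 1 match in the same 220 bases, with a median of 1 and a median GC content of 51.8%. A match describes these letters only, and binding was not measured.

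Scx was detected in all 9 P1 libraries. Its normalized count was 79.5, 66.1 and 249 in replicates 1, 2 and 3 of muscle P1, 113, 42.6 and 227 in periosteum P1, and 43.4, 284 and 299 in bone marrow P1. The spread within each P1 group was thus several fold, and the 3 P1 groups overlapped. Muscle P2 held 52.5, 10.1 and 53.8 and muscle P3 6.54 to 35.8, all below the lowest P1 library of that tissue. Periosteum P3 held 12.6, 414 and 46.6, and its replicate 2 was above every P1 library of any tissue. Scx was listed at 0 in all 3 libraries of periosteum P2 and in all 3 of bone marrow P2, and bone marrow P3 held 2.80, 0 and 4.58. By median the order was bone marrow P1, periosteum P1, muscle P1, muscle P2, periosteum P3, muscle P3 and bone marrow P3, followed by the P2 groups of periosteum and bone marrow at 0. Neighbours in this order overlapped except at 2 steps, from muscle P1 to muscle P2 and from muscle P3 to bone marrow P3.

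Mkx, on the minus strand at chr18:6934518-7004780, was above 0 in all 27 libraries, as were Tnmd and Thbs4. Muscle P1 held 251, 268 and 569, periosteum P1 866, 232 and 201, and bone marrow P1 225, 410 and 189. The P1 groups again overlapped, and 1 library of each stood above the other 2. Muscle P2 fell between 3.79 and 38.9 and periosteum P2 held 15.8, 4.05 and 321. Bone marrow P2, by contrast, held 228, 60.4 and 223, in the range of bone marrow P1. Muscle P3 lay at 132 to 182, periosteum P3 at 161, 963 and 127, and bone marrow P3 at 55.4, 43.5 and 4.19. In the order of medians, from muscle P1 at 268 down to periosteum P2 at 15.8, only the step from periosteum P3 to bone marrow P3 separated neighbours that did not overlap.

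Tnmd was high in P1 of muscle and periosteum and low in bone marrow. Its values were 4728, 3919 and 5914 in muscle P1 (mean 4854 ± 1003, SD, n = 3) and 5843, 5220 and 2930 in periosteum P1 (4665 ± 1534, SD, n = 3). In bone marrow P1 they were 18.6, 19.4 and 40.8 (26.2 ± 12.6, SD, n = 3), so that the highest marrow library was below the lowest of either other tissue. P3 cells of muscle held 1606 to 2085, and those of periosteum 1563, 5198 and 1751, where replicate 2 was again the high library. Muscle P2 was at 61.3 to 316. Every library of periosteum P2, bone marrow P2 and bone marrow P3 was between 0.930 and 12.7. The order of medians began with periosteum P1 and muscle P1, which overlapped, then muscle P3 and periosteum P3, which overlapped, then muscle P2 and bone marrow P1, each apart from its neighbours, and ended with the 3 low groups, which overlapped.

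Thbs4 was the most abundant of the 4. In muscle P1 it stood at 35243, 20993 and 38961 (31732 ± 9484, SD, n = 3) and in periosteum P1 at 45161, 32712 and 19146 (32340 ± 13012, SD, n = 3). Bone marrow P1 had 1715, 5241 and 1571 (2842 ± 2079, SD, n = 3). The marrow libraries did not overlap with the P1 libraries of the other tissues, but they overlapped with muscle P2, at 1180 to 2298. Muscle P3 was at 11142 to 17886 and periosteum P3 at 10708 to 14174, and here replicate 2 of periosteum P3, which led for the other 3 genes, was the lowest of its group. Periosteum P2 was the least even group, at 1019, 18.6 and 3987. Bone marrow P2 was at 33.2 to 108 and bone marrow P3 at 3.78 to 37.1. Muscle P1 and periosteum P1 headed the order of medians and overlapped, the 2 P3 groups of those tissues came next and overlapped, and from muscle P2 through bone marrow P1, periosteum P2, bone marrow P2 and bone marrow P3 each group overlapped with the next.

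**Figure D1:**
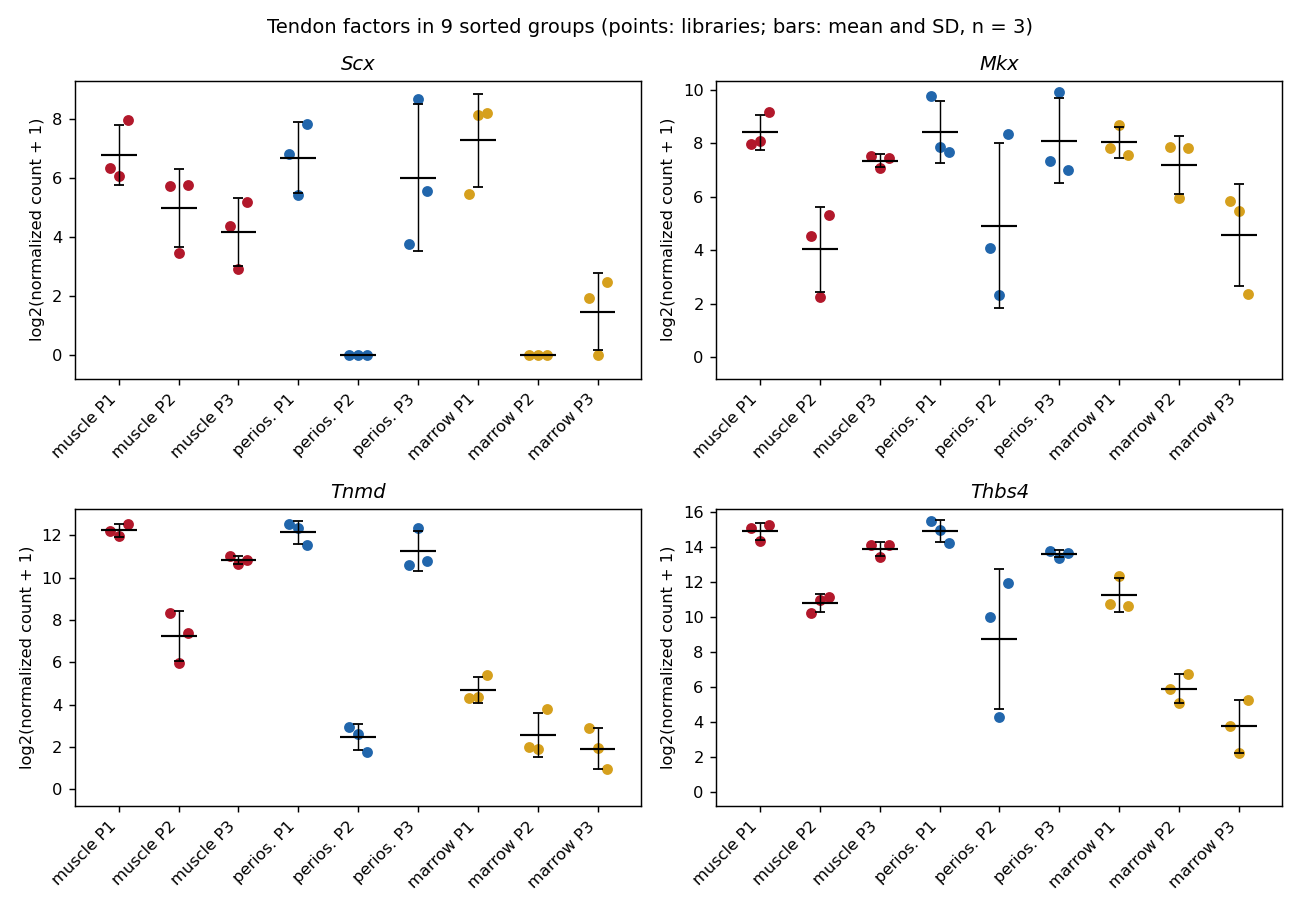
Each point is 1 library, the horizontal bar the group mean and the vertical bar its SD (n = 3), on a scale of log2(normalized count + 1), for Scx, Mkx, Tnmd and Thbs4 in the 9 sorted groups. In bone marrow P1 Scx reached 299 while Tnmd stayed at or below 40.8, and Scx was at 0 in all libraries of periosteum P2 and bone marrow P2.

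Divided by the merged exon length of each gene, the median level per kilobase in muscle P1 was 10715 for Thbs4, 3494 for Tnmd, 65.5 for Mkx and 39.6 for Scx. In bone marrow P1 the same quantity was 521 for Thbs4, 142 for Scx, 54.9 for Mkx and 14.3 for Tnmd. Tnmd, second of the 4 in muscle P1 on this scale, was last in bone marrow P1.

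The study compared P1 with P2 and P3 to describe what sets P1 apart. In this comparison all 4 genes had a positive difference in all 3 tissues, and a gene was called when its adjusted p was below 0.05 and its log2 fold change above 1.5 in size. In muscle only Tnmd was called, 3.20 log2 units higher in P1 (SE 0.66, adjusted p = 0.0108 by limma), in a comparison in which 0.591% of all genes tested were called as higher. Scx, Mkx and Thbs4 had differences of 2.20, 2.71 and 2.56 with adjusted p of 0.478, 0.320 and 0.281. All 4 genes nevertheless had every muscle P1 library above every P2 and P3 library of muscle, a separation that 5.14% of the genes tested showed. The Tnmd call did not hold with any 1 of the muscle P1 libraries left out, at adjusted p 0.0714, 0.0515 and 0.0965 without replicates 1, 2 and 3. Thbs4 was called, at adjusted p 0.0113, when periosteum P2 replicate 2 was left out of the shared estimate of spread. With the muscle groups fitted alone Mkx and Thbs4 were called too (adjusted p 0.0411 and 0.00286). Here as in every comparison of these bulk libraries, fewer cells that express a gene and less of its RNA per cell cannot be told apart.

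In periosteum 3 of the 4 genes were called as higher in P1, beside 4.32% of all genes. Tnmd was 5.28 log2 units higher (SE 0.66, adjusted p = 6.49e-06 by limma) and Thbs4 3.72 (SE 0.96, adjusted p = 0.0140). Scx had an adjusted p of 0.0214. Its fitted difference rested on P2 libraries listed at 0 and so on the pseudocount, at 5.36, 3.70 and 2.52 with pseudocounts of 0.1, 1 and 5, and the call was absent with 5 (adjusted p 0.0565). Mkx differed by 1.93 (95% interval -0.28 to 4.14, adjusted p = 0.270). Only Thbs4 had every P1 library above every P2 and P3 library, where 2.84% of all genes did, since periosteum P3 replicate 2 was within or above the P1 range for the other 3, as were periosteum P3 replicate 3 for Scx and periosteum P2 replicate 3 for Mkx. The Scx call was lost without periosteum P1 replicate 1 or replicate 3 (adjusted p 0.0708 and 0.103), and the Thbs4 call without periosteum P1 replicate 1 (0.0737). Without periosteum P3 replicate 2 the differences were 4.37 for Scx, 2.39 for Mkx, 5.55 for Tnmd and 3.66 for Thbs4, with the same 3 genes called. In a fit of the 3 periosteum groups alone, Scx and Thbs4 were not called (adjusted p 0.318 and 0.403).

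Bone marrow also had 3 of 4 called, where 7.48% of all genes were called as higher and the median gene was at -0.389. Thbs4 was 6.40 log2 units higher in P1 (SE 0.96, adjusted p = 3.29e-05 by limma). Scx had an adjusted p of 5.23e-05, and its fitted difference was 8.86, 6.55 and 4.75 with pseudocounts of 0.1, 1 and 5 against P2 libraries at 0. Tnmd was 2.43 higher (SE 0.66, adjusted p = 0.0100), a difference between levels of 18.6 to 40.8 and of 0.930 to 12.7, and without bone marrow P1 replicate 3, its highest library, it was 2.08 with an adjusted p of 0.0739. Mkx differed by 2.15 (95% interval -0.06 to 4.36, adjusted p = 0.161). The 3 called genes had all P1 libraries above all others of the tissue, as had 12.8% of the genes tested.

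Taken against P2 alone, P1 was higher for most of the members. In muscle 3 of 4 were called, beside 3.59% of all genes: Tnmd by 5.0, Mkx by 4.37 and Thbs4 by 4.12 log2 units (adjusted p 8.67e-05, 0.0249 and 0.0181 by limma), and Scx differed by 1.79 (adjusted p 0.453). The Mkx call was lost without any 1 of the 3 muscle P1 libraries or muscle P2 replicate 2 (adjusted p 0.0581 to 0.144), and that of Thbs4 without muscle P1 replicate 1 or 3 or muscle P2 replicate 1 (0.0638 to 0.0695). In periosteum all 4 were called, beside 10.1% of all genes, with Tnmd 9.67 and Thbs4 6.14 log2 units higher (adjusted p 2.61e-09 and 0.000336), Scx above a group listed at 0 (adjusted p 0.000262) and Mkx 3.51 higher with overlapping libraries (adjusted p 0.0462). The Mkx call held in 9 of 27 fits that left out 1 library, and the difference was 2.23 without periosteum P2 replicate 2 and 5.23 without the high P2 library, replicate 3. It was also lost with a pseudocount of 0.1 (adjusted p 0.0561), no filter (0.0679), quantile normalization (2.64, adjusted p 0.0889) and the replicate block (0.0537). In a fit of the periosteum groups alone only Tnmd was still called, with adjusted p of 0.0769 for Scx, 0.410 for Mkx and 0.280 for Thbs4. In bone marrow Scx (adjusted p 5.10e-05, P2 listed at 0), Thbs4 (5.32, adjusted p 0.000763) and Tnmd (2.11, adjusted p 0.0326) were called, beside 10.4% of all genes. Mkx did not pass there, with a difference of 0.83 (95% interval -1.72 to 3.38). The Tnmd call in bone marrow was lost without bone marrow P1 replicate 2 or 3 or bone marrow P2 replicate 1 or 2 (adjusted p 0.0525 to 0.126), with a pseudocount of 5 (1.53, adjusted p 0.0618) and with the groups fitted alone (0.0895).

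Against P3 the calls were fewer. In muscle 0 of 4 genes were called by limma and 1, Scx, had an unadjusted p below 0.05, although all 4 had every P1 library above every P3 library, as had 12.8% of all genes. The differences were 2.62 for Scx, 1.06 for Mkx, 1.39 for Tnmd and 1.01 for Thbs4, in a comparison that called 0.141% of the genes as higher. In periosteum 0 of 4 were called and 0 had an unadjusted p below 0.05, at 0.69, 0.34, 0.88 and 1.29, where 1.39% of all genes were called as higher. Only Thbs4 was free of overlap there, as were 6.72% of all genes, and without periosteum P3 replicate 2 the differences became 2.03, 1.26, 1.43 and 1.18 with adjusted p from 0.414 to 0.757. The sign for Scx and Mkx in periosteum turned with 1 library left out, to -0.43 for Scx without periosteum P3 replicate 1 and to -0.32 for Mkx without periosteum P1 replicate 1. Bone marrow P1 was higher than bone marrow P3 in Thbs4 by 7.48, in Scx by 5.82 and in Tnmd by 2.75 log2 units (adjusted p 7.44e-05, 0.00210 and 0.0246 by limma), beside 3.46% of all genes. Mkx differed by 3.47 (adjusted p 0.0965), and all 4 genes were free of overlap, as were 18.2% of all genes. The Tnmd call was lost without any 1 of the bone marrow P1 libraries or bone marrow P3 replicate 2 or 3 (adjusted p 0.0511 to 0.156). It was also lost with rescaled totals (1.95, adjusted p 0.123), a pseudocount of 5 (1.88, 0.0709) or the groups fitted alone (0.0574). Mkx was called without periosteum P2 replicate 3 (0.0364) and with quantile normalization (3.599, adjusted p 0.0317). Whether the tissues differed in the step from P3 to P1 was not tested.

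**Figure D2:**
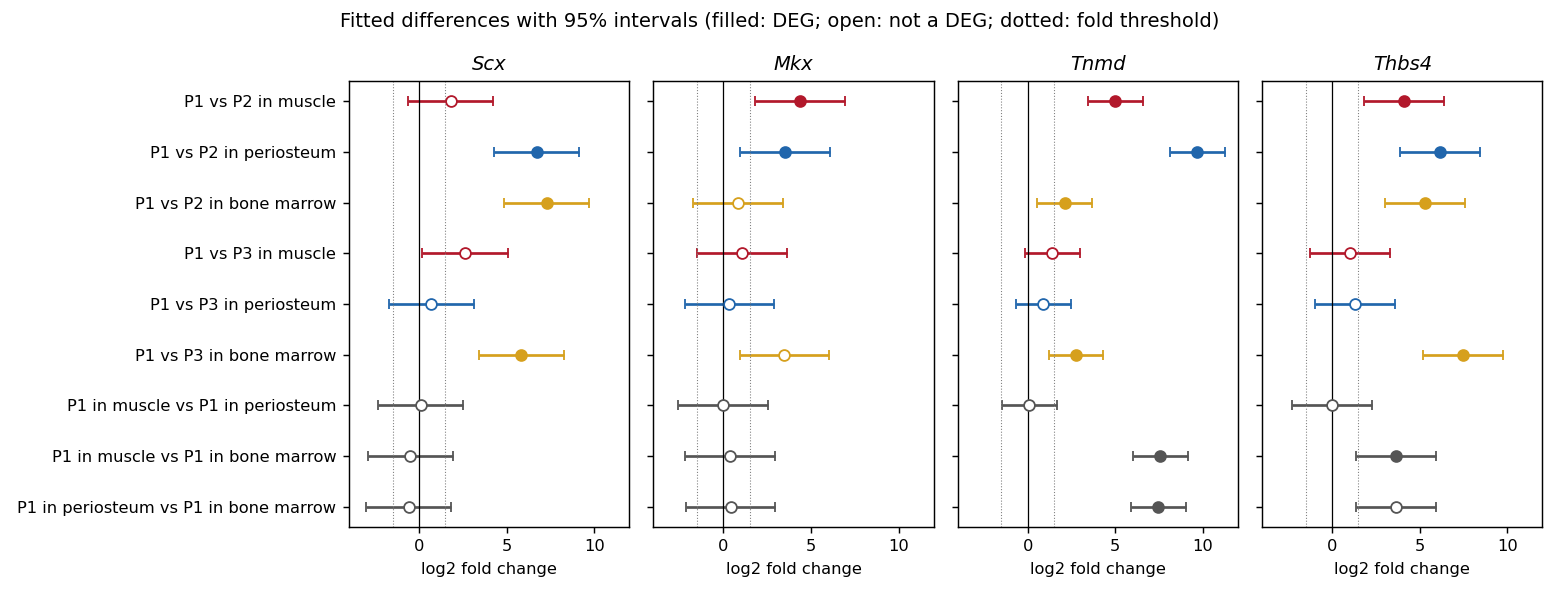
Points are fitted log2 fold changes of normalized counts and bars their 95% intervals, for each gene in 9 comparisons, with filled points for called genes and dotted lines at the fold threshold of 1.5. P1 against P2 had called genes in every tissue, and P1 against P3 in bone marrow. Between P1 groups, Tnmd and Thbs4 were called in muscle against bone marrow, and Tnmd in periosteum against bone marrow. The Scx points against P2 in periosteum and bone marrow are relative to groups at 0 and depend on the pseudocount.

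A call in 1 tissue and not in another does not show a difference between tissues, so the change to P1 was also compared between tissues. By limma 0 of 4 genes passed an adjusted p of 0.05 in any of the 3 pairs of tissues, which called 2.51%, 7.67% and 2.88% of all genes. Unadjusted p was below 0.05 for 1 gene between muscle and periosteum, for 2 between muscle and bone marrow and for 1 between periosteum and bone marrow. The 2 lowest adjusted p were those of muscle minus bone marrow, -4.35 for Scx (95% interval -7.32 to -1.37, adjusted p 0.0668) and -3.83 for Thbs4 (-6.63 to -1.04, adjusted p 0.0886). The Scx value rests on bone marrow P2 libraries at 0 and was -6.59 with a pseudocount of 0.1 (adjusted p 0.0331) and -2.77 with a pseudocount of 5 (adjusted p 0.154). Both passed with the muscle and bone marrow groups fitted alone (adjusted p 0.0171 and 0.00150). With 1 library left out Scx passed in 4 of the 27 fits (without muscle P2 replicate 2, periosteum P3 replicate 1 or 2, or bone marrow P1 replicate 1) and Thbs4 without periosteum P2 replicate 2 or 3. For Tnmd the change to P1 was larger by 2.85 in periosteum than in bone marrow (adjusted p 0.104) and smaller by 2.08 in muscle than in periosteum (adjusted p 0.282). The Thbs4 difference between periosteum and bone marrow, -2.68 (adjusted p 0.353), passed at -3.79 without periosteum P2 replicate 2 (0.00612).

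Between the P1 cells of the 3 tissues differences were called for Tnmd and Thbs4, and none by limma for the transcription factors Scx and Mkx, of which 0 had an unadjusted p below 0.05. P1 of muscle and P1 of periosteum had differences of 0.09 for Scx (95% interval -2.34 to 2.51), -0.03 for Mkx (-2.57 to 2.52), 0.10 for Tnmd (-1.46 to 1.66) and 0.01 for Thbs4 (-2.27 to 2.29). By limma 0 of these 4 were called and 0 had an unadjusted p below 0.05, where 4.34% of all genes were called as higher in muscle and 0.559% as lower, and the median gene was 0.395 higher in muscle. The intervals allow a difference of several fold in either direction for Scx, Mkx and Thbs4, and each of the 4 changed sign with 1 P1 library left out, within -0.54 to 0.65 in all.

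Tnmd was 7.55 log2 units higher in muscle P1 than in bone marrow P1 (SE 0.76, adjusted p = 2.87e-07 by limma) and 7.45 higher in periosteum P1 against bone marrow (SE 0.76, adjusted p = 6.74e-07). It passed in every fit with a library left out. Thbs4 was 3.66 higher in muscle P1 than in bone marrow P1 (SE 1.10, adjusted p = 0.0368), and 3.66 higher in periosteum P1 (adjusted p = 0.0544), which was just short of the threshold. Both Thbs4 differences were without overlap between libraries. Their calls depended on the fit: the first was lost without any 1 of the muscle P1 libraries or without bone marrow P1 replicate 1 or 3 (adjusted p 0.0682 to 0.139), and the second was gained without any 1 of the periosteum P2 libraries (0.000534 to 0.0491). Scx differed by -0.50 (95% interval -2.92 to 1.93) and -0.58 (-3.01 to 1.84), and Mkx by 0.38 (-2.17 to 2.93) and 0.40 (-2.15 to 2.95). All genes called as higher were 5.4% in muscle against bone marrow and 1.91% in periosteum against bone marrow, so 2 and 1 of the 4 genes were called against these shares, while 2 of 4 were free of overlap in each, beside 20.5% and 8.44% of all genes.

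To set the genes side by side within a library, the level of each was also divided by that of Scx in the same P1 library. The authors' scaling differed from gene to gene, so a ratio may still carry it. Tnmd was 59.5, 59.3 and 23.7 times the level of Scx in muscle and 51.9, 123 and 12.9 times in periosteum, and only 0.428, 0.0682 and 0.137 times in bone marrow. The mean log2 ratio was -2.66 in bone marrow, against 5.45 for muscle and 5.44 for periosteum. For Thbs4 the ratio to Scx was 443, 318 and 156 for muscle, 401, 769 and 84.4 for periosteum and 39.6, 18.4 and 5.26 for bone marrow, with mean log2 ratios of 8.13, 8.21 and 3.97. The bone marrow libraries were below those of both other tissues for Tnmd and for Thbs4. Each of these 4 differences in log2 ratio, 8.11 and 8.10 for Tnmd and 4.16 and 4.24 for Thbs4, had a two-sided exact permutation p of 0.1, which is the smallest that 3 libraries against 3 allow, and 0.225 after adjustment over 9 comparisons. Mkx over Scx overlapped in all 3 tissues, with mean log2 ratios of 1.62, 1.74 and 0.75 (lowest exact permutation p 0.5, adjusted p 0.75).

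**Figure D3:**
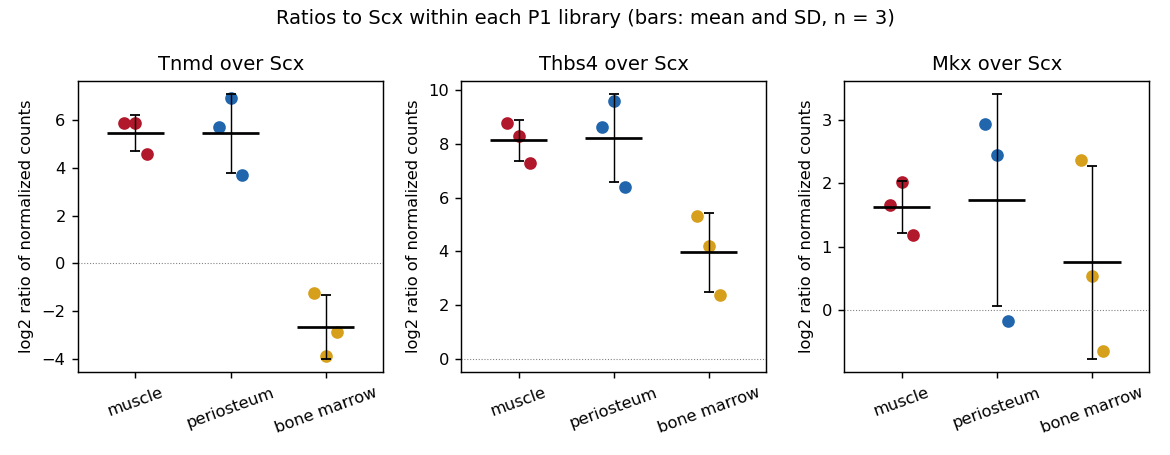
The level of Tnmd, Thbs4 or Mkx divided by that of Scx in the same P1 library is shown on a log2 scale, with 1 point per library and bars for the mean and SD (n = 3). The dotted line marks equal levels. All bone marrow points for Tnmd over Scx lie below it, at ratios of 0.0682 to 0.428, and all muscle and periosteum points lie above it.

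Over all 27 libraries the levels of Tnmd and Thbs4 had the highest correlation of the 6 pairs of members, r = 0.863 on the log2 scale. Scx had r = 0.717 with Tnmd and 0.722 with Thbs4, and Mkx had 0.524 with Tnmd, 0.583 with Thbs4 and 0.499 with Scx. These values describe libraries that share tissues, sorts and scaling. For scale, 13 of the 18442 genes had a higher r with Tnmd than Thbs4 did, while 1675 had a higher r with Scx than Mkx did.

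The genes whose levels were most like those of each member were ranked by r over the 27 libraries. For Scx they were Postn (0.885), which encodes the matrix protein periostin, Lmo4 (0.861), Serpinf1 (0.859), Atxn10 (0.844) and Mrc2 (0.834), a collagen uptake receptor. For Tnmd they were Mfap4 (0.961), a microfibril-associated protein, Chodl (0.945), Cpxm2 (0.940), Map1b (0.900) and Tagln (0.895). Thbs4 had Peg3 (0.912), Zbtb20 (0.900), Parva (0.891), Pdgfrl (0.884) and Gcat (0.881), and Mkx had Ctdspl (0.834), Trim46 (0.827), Tceal3 (0.802), Lrrc15 (0.780) and Fam214a (0.759). Mfap4 followed the split of Tnmd in P1 cells, at 0 to 3.03 in bone marrow against 2254 to 3675 in muscle and 4834 to 14788 in periosteum. Postn, like Scx, was read in the P1 libraries of all 3 tissues, at 4206 to 8575 in muscle, 2157 to 17113 in periosteum and 1716 to 4024 in bone marrow.

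Each member has relatives of similar sequence. Of the 12 taken, 10 passed the filter, and Irx1 and Irx4, homeobox genes of the class nearest to Mkx, did not. Cnmd encodes chondromodulin, the nearest relative of tenomodulin and a cartilage protein. It shared the low values of Tnmd in bone marrow P1, at 0, 0 and 9.42, beside 340, 800 and 38.2 in muscle P1 and 1429, 16480 and 2409 in periosteum P1. Unlike Tnmd it was highest in periosteum P2, at 16499, 31745 and 33158. P1 of muscle and P1 of periosteum were 6.66 and 10.8 log2 units above bone marrow P1 in Cnmd (adjusted p 0.00153 and 1.34e-05 by limma). With bone marrow P1 libraries at 0, the sizes of these differences depend on the pseudocount.

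Among the thrombospondins, Comp, which encodes the cartilage oligomeric matrix protein found in both tendon and cartilage, went with Thbs4 between tissues. It was at 5847 to 8459 in muscle P1, 15651 to 35207 in periosteum P1 and 121 to 142 in bone marrow P1, so that muscle P1 was 5.75 and periosteum P1 7.61 log2 units higher (adjusted p 1.58e-07 and 6.57e-09 by limma), and it differed by -1.86 between muscle P1 and periosteum P1 (adjusted p 0.0497). Against P2 and P3 it was 3.24 higher in muscle P1 (adjusted p 0.000330) and 1.34 higher in bone marrow P1, below the fold threshold, and in periosteum its P2 libraries, at 14414 to 50291, overlapped with P1. Thbs3 was also higher in P1 of muscle and periosteum than of bone marrow, by 4.88 and 2.88 (adjusted p 0.000276 and 0.0423). Thbs1, in contrast, stood at 9751 to 11240 in muscle P1, 3889 to 10879 in periosteum P1 and 12429 to 26250 in bone marrow P1. Thbs1 was 2.33 log2 units higher in P1 than in P2 and P3 in muscle and 3.39 higher in bone marrow (adjusted p 0.00581 and 6.16e-06), and Thbs2 was 4.50 higher in bone marrow P1 (adjusted p 0.000841). Tcf15, the basic helix-loop-helix gene nearest to Scx, was at 30.0 to 70.3 in muscle P1, at 0, 0.747 and 0 in periosteum P1 and at 0, 1.74 and 23.5 in bone marrow P1, 4.49 lower in periosteum P1 than in periosteum P2 and P3 (adjusted p 0.0247) and 5.25 higher in muscle P1 than in periosteum P1 (adjusted p 0.0350). Both Tcf15 differences rest on periosteum P1 libraries at or near 0, so their sizes depend on the pseudocount. Of the Irx genes Irx5 was the one called in P1 against P2 and P3 and between P1 groups, 5.31 higher in P1 than in P2 and P3 of bone marrow (adjusted p 0.00449) and 5.14 lower in muscle P1 than in bone marrow P1 (fitted difference -5.14, adjusted p 0.0275).

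The other genes of tendon were taken as 3 lists of regulators, signals and matrix genes, of which 9 of 9, 9 of 10 and 24 of 24 were tested. Comp stands in the matrix list too, Chodl is also one of the genes most like Tnmd, and Sox9 is also in the chondrocyte list. In P1 against P2 and P3, the matrix list had 6 genes higher and 0 lower in muscle, against 10 and 0 for periosteum and 16 and 0 for bone marrow, beside 0.591%, 4.32% and 7.48% of all genes higher, and its medians were 1.46, 1.65 and 3.34 beside 0, 0 and -0.389 over all genes. Among the called genes the largest differences in muscle were those of Col11a1 (4.71), Fmod (3.602), which encodes the collagen-binding fibromodulin, and Col12a1 (3.54). Those called in periosteum were led by Kera (7.53), which encodes keratocan, Col1a1 (4.80) and Chodl (4.65), and those in bone marrow by Col1a1 (8.55), one of the chains of type I collagen, Col1a2 and Col11a1 (7.84). The matrix genes higher in bone marrow P1 were led by fibrillar collagens, and type I collagen is the main collagen of bone as well as of tendon. Kera and Chodl differed there by 0.09 and 0.02.

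Among the regulators 0 of 9 were called in muscle P1. In periosteum P1 Eya2 (5.03), a transcriptional coactivator, was higher, and in bone marrow P1 Sox9 (3.33), the master factor of cartilage, and Egr1 (3.04), a zinc finger factor, were higher and Six2 (-2.18) was lower. Of the signals 0 of 9 were called in muscle P1, Smad3 (4.56) and Tgfb3 (3.04) were higher in periosteum P1 and Tgfb3 (3.66) in bone marrow P1. The medians of regulators were 0.672, 0.772 and 1.31 and those of signals 0.438, 0.675 and 1.55 in muscle, periosteum and bone marrow. Over the 3 lists together, 14 of 42 genes were called in periosteum, and 8 without periosteum P1 replicate 1, where all genes called went from 1690 to 1118. In the muscle groups fitted alone 13 were called in place of 6, and in the periosteum groups alone 4 in place of 14. All genes called also rose in muscle and fell in periosteum in these fits, with the numbers given in the last section.

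Between tissues the matrix list had called genes in both directions. In P1 of muscle against bone marrow 12 of 24 were higher and 7 lower, beside 5.4% and 2.94% of all genes. In P1 of periosteum against bone marrow 13 were higher and 2 lower, beside 1.91% and 2.96%, with medians of 1.61 and 2.29 for the 2 comparisons beside 0.0577 and -0.272 over all genes. Kera, Cilp and Chodl had the largest differences, 11.0, 11.0 and 10.7 in muscle and 10.3, 10.2 and 9.39 in periosteum. Kera, a marker used with Tnmd for differentiated tenocytes, was at 2437 to 4132 in muscle P1, at 1704 to 2911 in periosteum P1 and at 3.38, 0 and 0 in bone marrow P1. Chodl was at 4.84, 0 and 0 in bone marrow P1 and Cilp at 1.71, 15.9 and 3.44. The sizes of the Kera, Cilp and Chodl differences therefore depend on the pseudocount. Col1a1 was -4.86 and -1.92 in the same comparisons, Col1a2 -4.63 and -2.05, and Col11a1 -4.80 in muscle against bone marrow. Between muscle P1 and periosteum P1 0 matrix genes were higher and 5 lower, beside 4.34% and 0.559% of all genes, with Col11a1 (-3.23), Col1a1 (-2.94) and Col1a2 (-2.58) at the head and a median of -0.457, while the median of all genes was 0.395. Egr2 (6.84 and 7.20) and Egr1 (4.31 and 3.09) were the regulators higher in both tissues than in bone marrow, Sox9 (3.48) was called in periosteum against bone marrow, and 0 of 9 regulators were called between muscle and periosteum. Muscle and periosteum were digested while bone marrow was flushed, so a part of the isolation in the Egr1 and Egr2 differences cannot be told from tissue. Among the signals Tgfb2 (2.90) was higher and Tgfb1 (-6.23) lower in muscle P1 than in bone marrow P1, Tgfb1 (-3.46) was lower in periosteum P1, and Gdf5 (4.24), a growth factor of joints and tendon, was higher in muscle P1 than in periosteum P1. Gdf5 was low, at 29.4, 25.4 and 7.37 in muscle P1 and at 0 in every periosteum P1 library, so its difference depends on the pseudocount. The medians of regulators were -0.36, 0.344 and 1.71 and those of signals 0.427, 1.82 and 0 for muscle against periosteum, muscle against bone marrow and periosteum against bone marrow. The 6 genes of the 3 lists called between muscle and periosteum became 3 without muscle P1 replicate 1 or without periosteum P1 replicate 2. All genes called in that comparison were 904, and 497 to 1119 with 1 library left out.

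**Figure D4:**
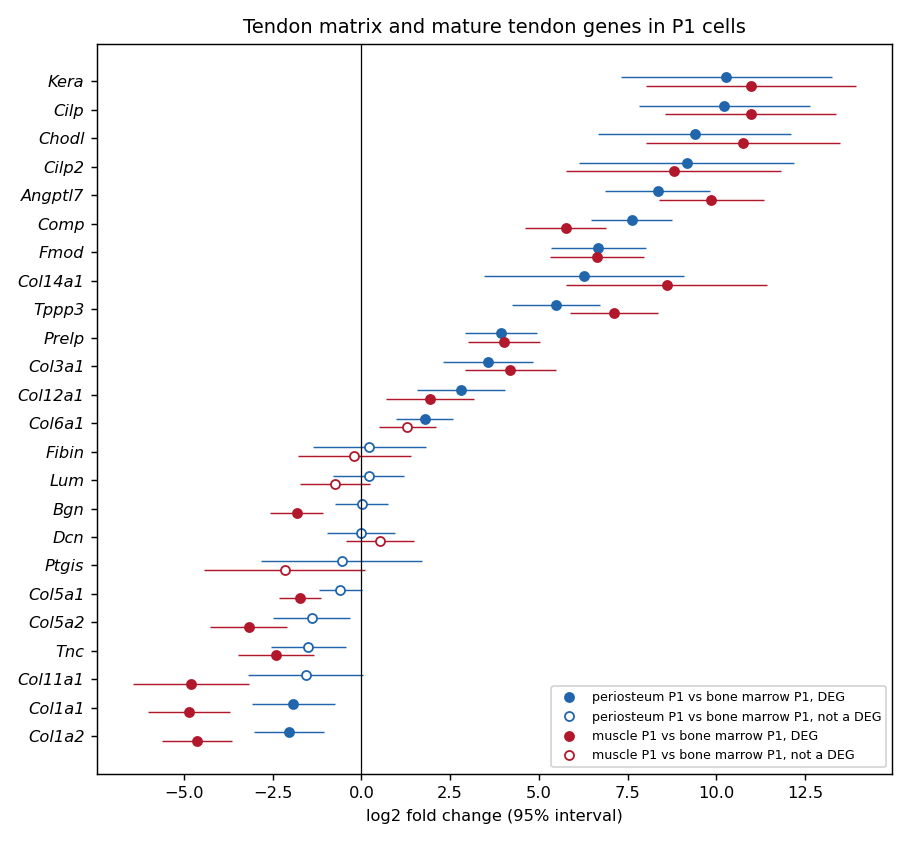
Points are fitted log2 fold changes between P1 groups for the 24 genes of the tendon matrix list, with 95% intervals, red for muscle against bone marrow and blue for periosteum against bone marrow, filled where the gene was called. Kera, Cilp and Chodl had differences between 9.39 and 11.0, at the opposite end from Col1a1, Col1a2 and Col11a1. Kera, Cilp and Chodl were at low values in bone marrow P1, so the sizes of their differences depend on the pseudocount.

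Other cell types moved with these results, and their part in them was not tested. P2 of muscle carried 10.8% to 11.9% of its normalized counts in 10 myofibre genes, beside 0.211% to 0.372% in muscle P1. Erythroid genes took 24.4% to 39.2% of periosteum P2 and 44.9% to 48.1% of bone marrow P2, beside 0.119% to 0.344% and 0.539% to 2.94% of the P1 groups, and 6, 7 and 7 of 7 erythroid genes were lower in P1 than in P2 and P3 in muscle, periosteum and bone marrow, where 0.455%, 4.84% and 11.5% of all genes were. The osteoblast list had 3, 5 and 7 of 7 genes higher in P1 in the same order, with 0 lower, where 0.591%, 4.32% and 7.48% of all genes were higher. Of the other lists in muscle, 4 of 8 satellite cell, 3 of 6 Schwann cell, 1 of 7 chondrocyte and 1 of 5 mural genes were higher in P1 and 0 were lower, and the fibro-adipogenic progenitor, synovial lining, myofibre, leukocyte and endothelial lists had 0 called. In periosteum 1 of 5 mural genes was higher, 1 of 10 myofibre, 1 of 6 leukocyte and 4 of 5 endothelial genes were lower, and the satellite cell, Schwann cell, chondrocyte, fibro-adipogenic progenitor and synovial lists had 0 called. In bone marrow 2 satellite cell, 4 chondrocyte, 1 fibro-adipogenic progenitor and 1 mural gene were higher, and 2 Schwann cell, 4 fibro-adipogenic progenitor, 1 synovial, 1 leukocyte, 5 endothelial and 1 mural gene were lower.

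In the comparison of P1 groups in which Tnmd and Thbs4 were high in muscle and periosteum and low in bone marrow, the summed level of 6 fibro-adipogenic progenitor genes was 54361 to 88170 for muscle, 12426 to 38359 for periosteum and 3127 to 4167 for bone marrow. That of 5 synovial lining genes was 12928 to 30276, 1457 to 2593 and 142 to 204, and that of 5 mural genes 34896 to 80411, 4231 to 5315 and 779 to 2991, with Myh11 and Mcam at 0 in all bone marrow P1 libraries. The 7 osteoblast genes ran the other way, from 11491 to 30431 in muscle through 249380 to 490430 in periosteum to 935890 to 1340100 in bone marrow. Against bone marrow P1, muscle P1 was higher in 5 of 6 fibro-adipogenic, 3 of 5 synovial, 4 of 5 mural, 6 of 8 satellite cell, 4 of 6 Schwann cell, 4 of 5 endothelial, 10 of 10 myofibre and 2 of 7 chondrocyte genes, and lower in 6 of 7 osteoblast, 2 of 7 chondrocyte, 7 of 7 erythroid and 4 of 6 leukocyte genes. Over all genes 5.4% were higher and 2.94% lower in that comparison. Periosteum P1 was higher than bone marrow P1 in 4 fibro-adipogenic, 2 synovial, 4 mural, 5 chondrocyte, 1 endothelial and 1 myofibre gene, lower in 7 erythroid and 5 leukocyte genes, and had 0 osteoblast, satellite cell or Schwann cell genes called, beside 1.91% of all genes higher and 2.96% lower. Muscle P1 was higher than periosteum P1 in 9 myofibre, 4 satellite cell, 4 Schwann cell, 1 fibro-adipogenic, 1 synovial, 1 leukocyte, 3 endothelial and 2 mural genes and lower in 4 chondrocyte, 4 osteoblast, 4 erythroid and 1 Schwann cell gene, beside 4.34% of all genes higher and 0.559% lower. The part of these cell types in the levels of the 4 tendon genes was not tested.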

How the data were processed

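RNA of 27 libraries of sorted Prx1-tdTomato cells was made into cDNA with SMART-Seq v4 and into libraries with Nextera XT. The authors trimmed reads with Trim Galore, aligned them with STAR and used DESeq2 for quality control and differential expression, and the deposited signal is a table of normalized counts for 30153 genes beside 1 reporter row, which was left out. The genome build, annotation and counter are not given in the sources used here. The steps between low values differ from gene to gene, so reads were not recovered and no count model was used.

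The filter asked for a value of 10 or more in 3 or more libraries and kept 18442 genes, and 2455 of the 30153 were at 0 throughout. With limma 3.58.1 in R 4.3.3, lmFit and eBayes with a trend were run on log2(normalized count + 1), with 1 mean per group over all 27 libraries and Benjamini-Hochberg adjustment over all genes tested in each comparison. Fold changes on this scale understate the change of low genes. Calls needed an adjusted p below 0.05 with a log2 fold change beyond 1.5 in either direction, and comparisons of changes between tissues used the adjusted p alone. P1 was compared with the mean of P2 and P3, with each of them, and between tissues. The fit was also run on simulated data that gave a gene the same SD in every group. That run could not show the effect of a spread that differs between groups. Lists are described by counts and medians, with no set test.

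The members and lists were chosen with earlier results of these data known. Genes named are the 4 members, their relatives, up to 3 called genes per list, comparison and direction with the largest change, the 5 genes most like each member by Pearson's r, and the sorting markers. Cnmd stands in the table as Lect1. The result of 1 listed gene is not reported here by name. Other genes of a list are named as comparison: Kera and Chodl in bone marrow, Myh11 and Mcam in the mural list, and Bop1 for its position. Ratios to Scx within P1 libraries, tested by a two-sided exact permutation test, were added after the data were seen. Replicates are samples the labels number within a group. The paper gives 3 mice per group for these data, and the labels do not say which animal gave which library.

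Each result was computed again with a pseudocount of 0.1 or 5, without the filter or with a minimum mean of 50, with quantile normalization or rescaled totals, with the replicate number as a block, without the trend, from the compared groups alone, and with each library left out. Python 3.11.15, pandas 2.3.3, numpy 2.4.6, scipy 1.17.1 and matplotlib 3.10.9 were used for the rest.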

Additional observations from a re-analysis of the deposited data

How the results depend on the processing

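The 4 genes gave 36 differences in the main comparisons. Under 9 alternatives 300 of 324 values kept direction and side of the threshold, 13 passed it newly, 6 no longer passed and 5 changed sign. With 1 of 27 libraries left out, 929 of 972 did, and 20 changed sign. The causes of these changes were not tested. Leaving out a library of a group outside a comparison cannot move its difference, only its adjusted p. The same holds for the filter, trend, block and groups-alone settings. Such values could not change sign, and both tallies include them. The depth in reads is unknown, so no precision can be given for values of a few normalized counts, such as Tnmd in bone marrow P2 (2.77 to 12.7).

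Fitting the compared groups alone gave calls in P1 against P2 and P3 of muscle for Mkx (2.71, adjusted p 0.0411) and Thbs4 (2.56, 0.00286), took away those of periosteum for Scx (3.70, 0.318) and Thbs4 (3.72, 0.403), and gave one for Thbs4 in periosteum P1 against bone marrow P1 (3.66, 0.0455). It also brought the muscle minus bone marrow changes of Scx (-4.35) and Thbs4 (-3.83) past the threshold. A pseudocount of 5 took away the periosteum call of Scx (2.52) and gave calls for Thbs4 in periosteum P1 against bone marrow P1 (3.65) and for the periosteum minus bone marrow change of Tnmd (3.17). A pseudocount of 0.1 gave one for the Scx change of muscle minus bone marrow (-6.59), as did eBayes without trend (-4.35). Thbs4 in muscle P1 against bone marrow P1 (3.66) lost its call with a pseudocount of 0.1, no filter or no trend (adjusted p 0.0505, 0.0644 and 0.0646).

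Rescaled totals moved the median of all genes in muscle P1 against bone marrow P1 from 0.0577 to 0.642, and quantile normalization moved that of muscle P1 against periosteum P1 from 0.395 to -0.117. With rescaled totals Mkx in muscle against periosteum P1 (0.17), Scx in muscle against bone marrow P1 (0.17) and the Mkx change of periosteum minus bone marrow (0.22) changed sign, and Thbs4 in periosteum against bone marrow P1 was called (4.13). With quantile normalization Scx in muscle against periosteum P1 (-0.53) and the Tnmd change of muscle minus bone marrow (-0.046) changed sign, Thbs4 in periosteum against bone marrow P1 was called (3.52), and the Thbs4 change of muscle minus bone marrow passed (-4.38).

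The replicate numbers were checked for pairing. Same-numbered libraries of the 36 pairs of groups had residuals with an average correlation of 0.000242 (-0.0592 to 0.0502 by pair), so they were not taken as paired. With the replicate number as a block Thbs4 in periosteum P1 against bone marrow P1 was called (3.66, adjusted p 0.0424) and Mkx in P1 against P2 of periosteum was not (3.51, adjusted p 0.0537), and the block changed no other call of the 4 genes.

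With 1 library left out, the differences of P1 against P2 and P3 that changed call ran from 2.88 to 3.47 for Tnmd and 2.39 to 2.84 for Thbs4 in muscle, 3.13 to 4.37 for Scx and 2.603 to 4.52 for Thbs4 in periosteum, and 2.08 to 2.74 for Tnmd in bone marrow. Between P1 groups those of muscle against periosteum ran from -0.54 to 0.65 for Scx, -0.41 to 0.64 for Mkx, -0.21 to 0.29 for Tnmd and -0.33 to 0.29 for Thbs4. Against bone marrow, muscle P1 ran from 3.35 to 4.22 for Thbs4, and periosteum P1 from -1.49 to 0.045 for Scx, -0.26 to 0.79 for Mkx and 3.35 to 4.21 for Thbs4. The differences of changes ran from -0.070 to 1.45 for Mkx in muscle minus periosteum, -5.25 to -3.88 for Scx and -4.21 to -3.28 for Thbs4 in muscle minus bone marrow, and -0.88 to 0.64 for Mkx and -3.80 to -1.88 for Thbs4 in periosteum minus bone marrow. In P1 against P3 of periosteum Scx ran from -0.43 to 2.03 and Mkx from -0.32 to 1.26.

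Of the 42 tendon genes, those called in P1 against P2 and P3 of muscle went from 6 to 11 with quantile normalization and 13 with groups alone, and in periosteum from 14 to 4 with groups alone and 8 to 16 with a library left out. Between muscle and periosteum P1 they ran from 3 to 7 with a library left out. All genes called in P1 against P2 and P3 went in muscle from 193 to 126 and 305 with pseudocounts of 0.1 and 5 and 907 with groups alone, in periosteum from 1690 to 216 and in bone marrow from 3494 to 5720 with groups alone, and in muscle against bone marrow P1 from 1538 to 2862. With a library left out these totals ran from 99 to 250 in muscle, 1118 to 2561 in periosteum and 2185 to 4078 in bone marrow, and for P1 from 497 to 1119 in muscle against periosteum and 502 to 1173 in periosteum against bone marrow. With a pseudocount of 1, the differences between P1 groups in the log2 ratios of Tnmd and Thbs4 to Scx moved by less than the larger group SD. A P1 library was also left out, but leaving out 1 of 3 cannot move a group mean by as much as its SD, so that check could not fail. Both settings were chosen after seeing the data.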
